A study of Homo sapiens with 4 samples.

Results

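The genes of cholesterol and fatty acid synthesis were followed in NCI-H838, a human lung adenocarcinoma cell line, with and without deletion of the E3 ubiquitin ligase gene MIB1. The set held 34 genes of 58302 genes listed, chosen by name but with earlier results of these data known. It was made of 4 genes of the SREBP machinery, 19 genes of the sterol branch and 11 genes of the fatty acid branch. All 34 passed the filter on low counts and were among the 16181 genes tested.

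All libraries came from MIB1-iKO cells, a line grown from single-cell clones that carries guide RNA against MIB1 and a Cas9 induced by doxycycline (dox). The cells of the dox group were given 0.5 μg/mL dox for 3 days, and those of the no dox group were not. There were 2 libraries in each group, all at day 3, with no BMP ligand or inhibitor added. A dox-treated line without the MIB1 guide was not analysed here, so dox itself and the loss of MIB1 cannot be told apart in this comparison. The labels number the replicates without saying whether they came from separate cultures, and p-values measure the spread between these samples only. Single-cell cloning also means that the line is a selected derivative of NCI-H838.

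Total counts were 24398411 and 21207419 without dox and 15943025 and 17048990 with dox. For the targeted gene, MIB1, the libraries without dox held 598 and 588 reads and the dox libraries 90 and 59, and limma gave a log2 fold change of -2.58 ± 0.23 (SE) at an adjusted p of 0.000375. The summed RPKM (reads per kilobase of gene model, scaled for depth) of the epithelial markers lay between 82.9 and 91.5 without dox and between 67.1 and 72.2 with dox, and 1 of the 5, KRT19, was at 0 in every library. The summed level of the endothelial markers was at most 0.121 RPKM in any library, that of the immune markers at most 0.879, and that of the fibroblast markers at most 2.60. The markers KRT18 and KRT8 carried that difference, at log2 fold changes of -0.41 and -0.34, while EPCAM and CDH1 were at 0.13 and 0.25, and none of the 4 passed the test. The part of the keratin difference in the values that follow was not tested, and in bulk RNA fewer cells of a type and less RNA per cell cannot be told apart. The 6 genes called over the whole table were 0.0371% of those tested, where a call needed a Benjamini-Hochberg adjusted p of 0.05 or less and a change of 2-fold or more.

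Cells make cholesterol and fatty acids from the same cytosolic acetyl-CoA. Both branches are controlled by the sterol regulatory element-binding proteins (SREBPs), membrane-bound transcription factors that are cut free in the Golgi when sterols run low. SREBP-2, the product of SREBF2, acts mainly on sterol genes, and SREBP-1, the product of SREBF1, mainly on fatty acid genes. SREBPs bind sterol regulatory elements, usually together with NF-Y, which binds the CCAAT box, in the promoters of these genes.

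Promoter windows from RefSeq (GRCh38.p14), from 250 bases before to 50 after a start, were matched by symbol for 30 of the 34 genes in 44 windows. ACAT2, FDFT1, SQLE and FASN had no entry. Stretches of 4 promoters are shown because they belong to both SREBP genes and to an abundant gene of each branch. They are written 5′ to 3′ on the strand of the gene, and capitals mark a match to a sterol regulatory element (TCACNCCAC) or to the CCAAT box (ATTGG, or CCAAT on the other strand). The SREBF2 stretch is chr22:41832955-41833054 (plus strand), the SREBF1 stretch is chr17:17837037-17837136 (minus strand), the MSMO1 stretch is chr4:165327519-165327618 (plus strand) and the SCD stretch is chr10:100346983-100347082 (plus strand). The first 3 run from 150 to 51 bases before the start, and that of SCD is the 100 bases that begin 250 bases before it.
SREBF2: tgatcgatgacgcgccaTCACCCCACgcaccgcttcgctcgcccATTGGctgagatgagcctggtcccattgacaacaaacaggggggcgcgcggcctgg
SREBF1: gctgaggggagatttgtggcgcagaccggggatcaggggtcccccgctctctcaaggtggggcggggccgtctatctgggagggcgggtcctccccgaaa
MSMO1: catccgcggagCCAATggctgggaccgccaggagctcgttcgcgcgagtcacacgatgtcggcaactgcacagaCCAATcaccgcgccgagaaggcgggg
SCD: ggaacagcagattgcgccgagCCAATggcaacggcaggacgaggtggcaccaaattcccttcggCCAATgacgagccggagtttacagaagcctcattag

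The SREBF2 stretch holds both motifs side by side, and the MSMO1 and SCD stretches hold 2 CCAAT boxes each. Those of SCD begin 229 and 186 bases before the start, outside the range shown for the other genes. The SREBF1 stretch holds neither motif. It lies before the only SREBF1 start that was searched, so any other start of that gene is not covered. Searched on both strands, the CCAAT box was found in 63.6% of the 44 windows and in 34.6% of the 35116 windows of all promoters. It was in 76.2% of the windows of the sterol branch, in 52.6% of those of the fatty acid branch and in 50% of those of the machinery. The sterol regulatory element was in 4.55% of the members' windows, those of SREBF2 and ACSL1, and in 1.13% of all windows. The E-box CACGTG, which SREBPs can also bind, was in 13.6% of the members' windows and in 7.26% of all windows. A match is a stretch of letters and not a measured binding site.

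At the level of single genes, none of the 34 passed the test of dox against no dox, and the lowest adjusted p was 0.306 (limma). Without adjustment, 5 genes had a p under 0.05, all lower with dox: SREBF1, ACAT2, FASN, FADS2 and ACSL3. They were 14.7% of the set, where 4.59% of all genes tested were lower and 4.68% higher at that threshold. Over all 34 genes, 12 had a fold change above 0 and 22 below it, with a median log2 fold change of -0.06 and a range from -0.45 to 0.22. The median of all genes tested was -0.0004, with 49.9% of them above 0. The other tests gave no call either: edgeR's lowest adjusted p was 0.224 and DESeq2's was 0.231. Before adjustment, 4 members were under 0.05 in edgeR and 3 in DESeq2. Of all 16181 genes tested, 1467 were under that threshold in edgeR and 906 in DESeq2.

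**Figure D1:**
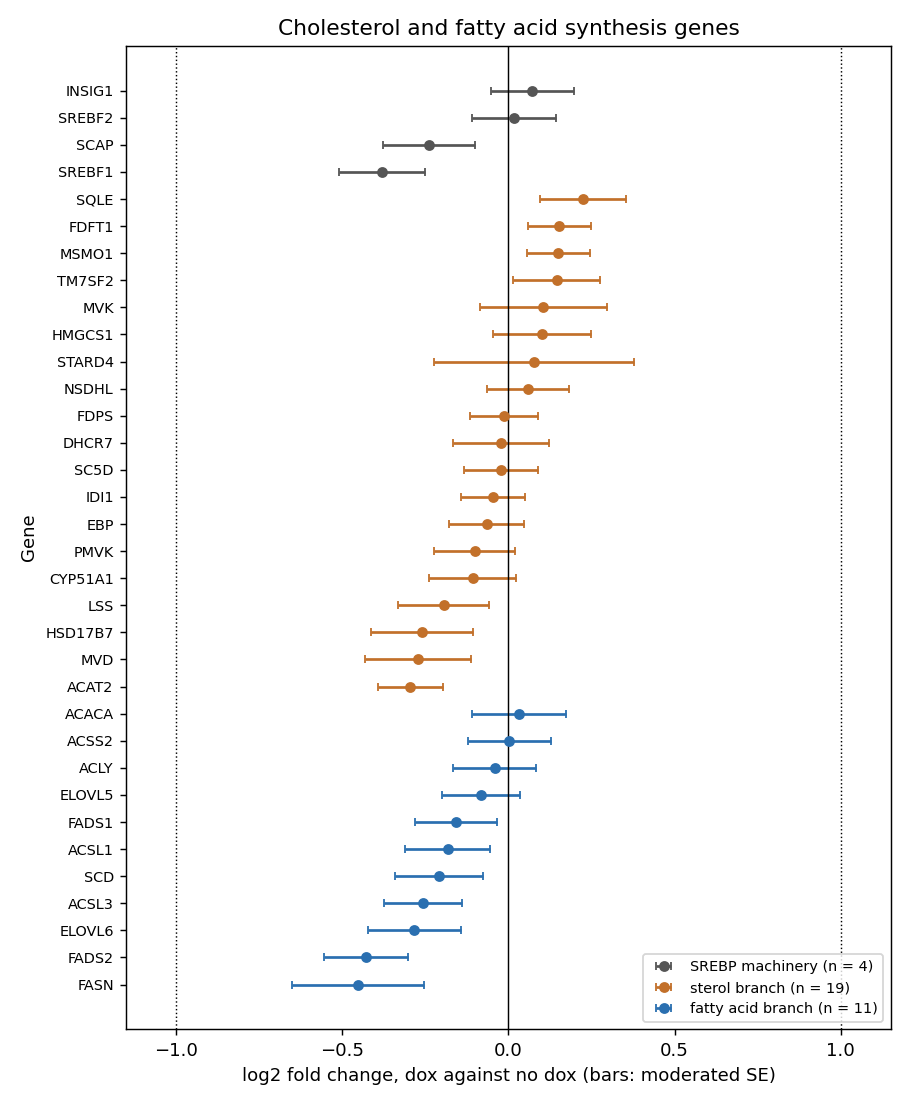
The log2 fold change of dox against no dox (x axis) is plotted for each of the 34 genes (y axis), with bars of 1 moderated SE from limma and colours for the machinery, the sterol branch and the fatty acid branch. All points lie between -0.45 and 0.22, inside the dotted lines at a 2-fold change, and 9 of the 11 fatty acid genes lie below 0 against 11 of the 19 sterol genes.

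The SREBP machinery was described first. SREBF1 (ENSG00000072310, chromosome 17, 17810399 to 17837002, minus strand, GENCODE 44 on GRCh38) stood at 11.04 and 12.57 RPKM without dox and at 9.01 and 8.69 RPKM with dox. Both dox libraries were below both no dox libraries. The log2 fold change was -0.38 ± 0.13 (SE, n = 2 against 2, limma unadjusted p = 0.0108, adjusted p = 0.368). In GENCODE its exons share 556 bases with RAI1 on the opposite strand, and RAI1 had a log2 fold change of 0.03.

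SREBF2 (ENSG00000198911, chromosome 22, 41833105 to 41907306, plus strand) stood at 13.6 and 13.3 RPKM without dox and at 12.2 and 14.4 RPKM with dox, so that the dox libraries enclosed the others. The fitted log2 fold change was 0.02 ± 0.13 (adjusted p = 0.983, limma), and its sign turned under other scalings. SREBF1 thus had a fold change below 0 in libraries in which SREBF2 lay close to 0, but the difference between the genes was not tested.

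SCAP, the escort that carries SREBPs from the endoplasmic reticulum to the Golgi, stood at 10.8 and 13.4 RPKM without dox and at 10.3 and 9.71 RPKM with dox. The groups did not overlap, at a log2 fold change of -0.24 ± 0.14 (adjusted p = 0.629, limma), which was -0.0833 without no dox replicate 2 and -0.40 without no dox replicate 1. INSIG1 holds SCAP back when sterols are plentiful and is itself an SREBP target. It stood at 30.8 and 32.8 RPKM without dox and at 30.1 and 35.1 RPKM with dox, where the dox libraries again lay outside the others. Its log2 fold change was 0.07 ± 0.13 (adjusted p = 0.903, limma).

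The sterol branch was described next, from acetyl-CoA to cholesterol. Its median log2 fold change was -0.02, with 8 genes above 0 and 11 below it. At an unadjusted p under 0.05 (limma), 1 of 19 (5.26%) was lower, against 4.59% of all genes tested. In log2 CPM (counts scaled by the library's total), the groups did not overlap for 5 genes: FDFT1 and MSMO1 were higher in both dox libraries, and ACAT2, PMVK and HSD17B7 lower. Among all genes tested, 18.7% did not overlap with dox higher and 17.4% with dox lower, so 2 and 3 of 19 were under the level of the whole table.

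Of the 7 genes of the mevalonate and isoprenoid steps, ACAT2 differed most. ACAT2 (ENSG00000120437) encodes the cytosolic thiolase that joins acetyl-CoA units at the entry to the pathway. It stood at 155.6 and 140.0 RPKM without dox and at 122.0 and 114.4 RPKM with dox, with both dox libraries below. The log2 fold change was -0.30 ± 0.10 (SE, limma unadjusted p = 0.00873, adjusted p = 0.358). ACAT2 shares 454 exon bases with TCP1 on the opposite strand, which had a log2 fold change of -0.19, and whether counting used strand is not stated.

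MVD, the decarboxylase that makes isopentenyl diphosphate, had 22.0 and 24.5 RPKM without dox and 15.7 and 22.3 RPKM with dox. It was low in dox replicate 1 only, and dox replicate 2 lay between the libraries without dox. Its log2 fold change of -0.27 ± 0.16 (adjusted p = 0.643, limma) was -0.02 without dox replicate 1 and -0.53 without dox replicate 2. HMGCS1, which makes HMG-CoA, had 21.8 and 23.6 RPKM without dox and 20.3 and 27.8 RPKM with dox, at a log2 fold change of 0.10. The remaining genes of these steps were MVK at 0.11 and PMVK at -0.10, kinases of mevalonate and of phosphomevalonate, IDI1 at -0.05, the isomerase of isopentenyl diphosphate, and FDPS at -0.01, the farnesyl diphosphate synthase.

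The 11 genes of the squalene and sterol steps had a median log2 fold change of -0.02. SQLE, the squalene epoxidase, had the highest value of the 34 genes. It stood at 21.4 and 23.4 RPKM without dox and at 23.6 and 27.4 RPKM with dox, with a log2 fold change of 0.22 ± 0.13 (adjusted p = 0.629, limma). In log2 CPM its groups overlapped, and the log2 fold change lay between 0.095 without dox replicate 2 and 0.35 without dox replicate 1. FDFT1, the squalene synthase that commits farnesyl diphosphate to sterols, stood at 113.9 and 100.7 RPKM without dox and at 125.6 and 112.4 RPKM with dox, where the second dox library lay just below the first library without dox in RPKM but not in log2 CPM. FDFT1 had a log2 fold change of 0.15 ± 0.09 (adjusted p = 0.664, limma).

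MSMO1, which removes methyl groups from sterols, was at 264.5 and 226.1 RPKM without dox and at 279.9 and 254.8 RPKM with dox, with a log2 fold change of 0.15. The sterol reductase TM7SF2 was at 0.14 and the sterol dehydrogenase NSDHL at 0.06. Below 0 lay DHCR7 and the desaturase SC5D, both at -0.02 and both late enzymes of cholesterol synthesis, the sterol isomerase EBP at -0.07, the lanosterol demethylase CYP51A1 at -0.11, the lanosterol synthase LSS at -0.20 and the sterol ketoreductase HSD17B7 at -0.26. That of HSD17B7 lay between -0.44 without no dox replicate 2 and -0.0745 without no dox replicate 1. CYP51A1 shares 2844 of its 4171 exon bases with a protein-coding gene on the same strand and 2827 with another. The pseudogene CYP51A1P2 held reads equal to 10.1% of those of CYP51A1, so the counts of CYP51A1 are uncertain. EBP shares 644 of its 1768 exon bases with a same-strand gene, and HMGCS1 shares 2497 of 6627 with an opposite-strand gene. The counts of EBP, and of HMGCS1 if strand was ignored, are thus uncertain too. STARD4, which moves cholesterol between membranes, was the lowest expressed member, with 0.415 and 0.511 RPKM without dox and 0.592 and 0.418 RPKM with dox, at a log2 fold change of 0.08 ± 0.30.

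The fatty acid branch lay lower than the sterol branch. Its median log2 fold change was -0.18, with 2 genes above 0 and 9 (81.8%) below it. At an unadjusted p under 0.05 (limma), 3 of 11 (27.3%) were lower, against 4.59% of all genes tested. Groups did not overlap for 4 of the 11, all lower with dox (FASN, ELOVL6, FADS2 and ACSL3), where 17.4% of all genes tested were lower in this way. In the synthesis of palmitate itself, 3 of 4 genes lay close to 0: ACACA, the carboxylase that makes malonyl-CoA, at 0.03, ACSS2, which makes acetyl-CoA from acetate, at 0.00, and ACLY, which makes it from citrate, at -0.04. ACACA stood at 2.08 and 2.32 RPKM without dox and at 2.26 and 2.17 RPKM with dox, and ACSS2 at 14.5 in both libraries without dox and at 13.7 and 14.8 RPKM with dox. For both genes the libraries of the groups overlapped.

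FASN (ENSG00000169710), the synthase that assembles palmitate, had 1.52 and 1.48 RPKM without dox and 0.896 and 1.29 RPKM with dox, or 305, 278, 117 and 200 reads. Both dox libraries were below, and dox replicate 1 was the lowest. The log2 fold change of -0.45 ± 0.20 was the lowest of the 34 genes (limma unadjusted p = 0.0383, adjusted p = 0.507), and it was -0.73 without dox replicate 2 and -0.19 without dox replicate 1.

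All 5 genes of desaturation and elongation were below 0. FADS2 (ENSG00000134824, chromosome 11, 61792980 to 61867354, plus strand), the first desaturase of polyunsaturated fatty acid synthesis, stood at 14.7 and 17.1 RPKM without dox. Its dox libraries were at 11.4 and 11.5 RPKM, both lower than the others and close to each other. The log2 fold change was -0.43 ± 0.13 (limma unadjusted p = 0.00441, adjusted p = 0.306), and it ranged from -0.56 to -0.31 when each library was left out in turn. FADS2 shares 49 exon bases with FEN1 on the same strand, a gene of DNA replication at a log2 fold change of -0.41, and 490 exon bases with FADS1 on the opposite strand.

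FADS1, the next desaturase of that path, was at -0.16 and its partner elongase ELOVL5 at -0.08. ELOVL6, which lengthens palmitate, stood at 4.24 and 4.07 RPKM without dox and at 3.25 and 3.49 RPKM with dox, a log2 fold change of -0.28 ± 0.14 (adjusted p = 0.573, limma). SCD, which puts the first double bond into saturated fatty acids and was the most abundant gene of the branch, stood at 53.4 and 58.8 RPKM without dox and at 44.1 and 51.5 RPKM with dox. SCD had a log2 fold change of -0.21 ± 0.13 (adjusted p = 0.672, limma), which was -0.01 without dox replicate 1 and -0.41 without dox replicate 2. The pseudogene SCDP1 held reads equal to 3.55% of those of SCD.

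The acyl-CoA synthetases couple fatty acids to coenzyme A before they enter lipids. ACSL3 (ENSG00000123983), which acts on lipid droplets, stood at 31.8 and 33.2 RPKM without dox and at 25.6 and 28.3 RPKM with dox, with both dox libraries below. Its log2 fold change was -0.26 ± 0.12 (limma unadjusted p = 0.0448, adjusted p = 0.526), and it was -0.14 without dox replicate 1. ACSL1 was at -0.18.

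**Figure D2:**
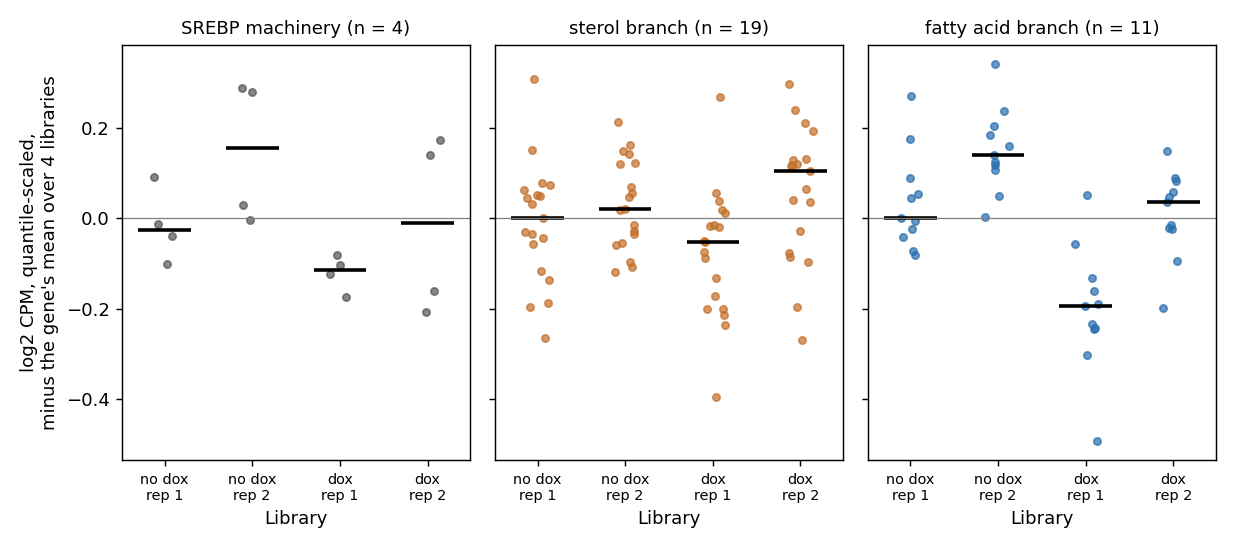
Each point is 1 gene in 1 library, as quantile-scaled log2 CPM minus the gene's mean over the 4 libraries (y axis), with the libraries on the x axis, a panel for each of the machinery, the sterol branch and the fatty acid branch, and bars at the medians. In the fatty acid panel the median is -0.19 in dox replicate 1 and 0.04 in dox replicate 2, against 0.0004 and 0.14 without dox.

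The branches were then set side by side in each library. The median of the fatty acid genes, as log2 CPM centred on each gene's mean, was 0.01 and 0.16 without dox and -0.25 and 0.08 with dox. The groups overlapped, because dox replicate 2 lay between the libraries without dox. The sterol genes were at -0.01 and 0.04 without dox and at -0.09 and 0.08 with dox, and all genes tested at -0.04 and 0.04 without dox and at -0.05 and 0.06 with dox. The sterol median minus the fatty acid median was -0.01 and -0.12 without dox and 0.16 and 0.0023 with dox. Both dox libraries were above both others in that difference, but dox replicate 2 and no dox replicate 1 were close, and the within-group SD was 0.0949.

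In the limma values the sterol median exceeded the fatty acid median by 0.16 on the log2 scale. That difference was 0.05 without dox replicate 1 and 0.26 without dox replicate 2, and 0.06 over the 15 members whose exons overlap no other annotated gene (8 sterol and 5 fatty acid genes among them). Without dox replicate 1 the fatty acid median itself was -0.01, without no dox replicate 2 it was -0.08, and without dox replicate 2 it was -0.33. The lower fatty acid median therefore rested largely on 1 of the 2 dox libraries. The smallest p that an exact permutation of 2 against 2 libraries allows is 0.333 (two-sided), and none is given for the difference between branches.

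Among the fatty acid genes, the summed RPKM was 248.3 and 264.3 without dox and 214.5 and 239.4 with dox. Among the sterol genes it was 1553 and 1456 without dox and 1503 and 1475 with dox, so that the dox libraries lay within the range of the others. The sterol sum was 6.25 and 5.51 times the fatty acid sum without dox and 7.01 and 6.16 times with dox, and these ratios overlapped.

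The replicates were then compared within each group. In log2 CPM without quantile scaling, dox replicate 2 was above dox replicate 1 in 30 of the 34 genes (88.2%) and in 63.8% of all genes tested. The median difference was 0.26 over the 34 and 0.12 over all genes. In these values all 11 fatty acid genes were higher in dox replicate 2 than in dox replicate 1. All 11 were also higher in no dox replicate 2 than in no dox replicate 1. In the quantile-scaled values this did not hold for every gene. There ACACA was lower in dox replicate 2 (-0.02) than in dox replicate 1 (0.05), and FASN and ELOVL6 were lower in no dox replicate 2 than in no dox replicate 1. Without dox, replicate 2 was above replicate 1 in 27 of the 34 genes and in 9847 of the 16181 genes tested. The differences between the dox replicates were widest for FASN at 0.67, MVD at 0.66, HMGCS1 at 0.61, DHCR7 at 0.48 and CYP51A1 at 0.44, genes of both branches. What sets the dox replicates apart was not tested.

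**Figure D3:**
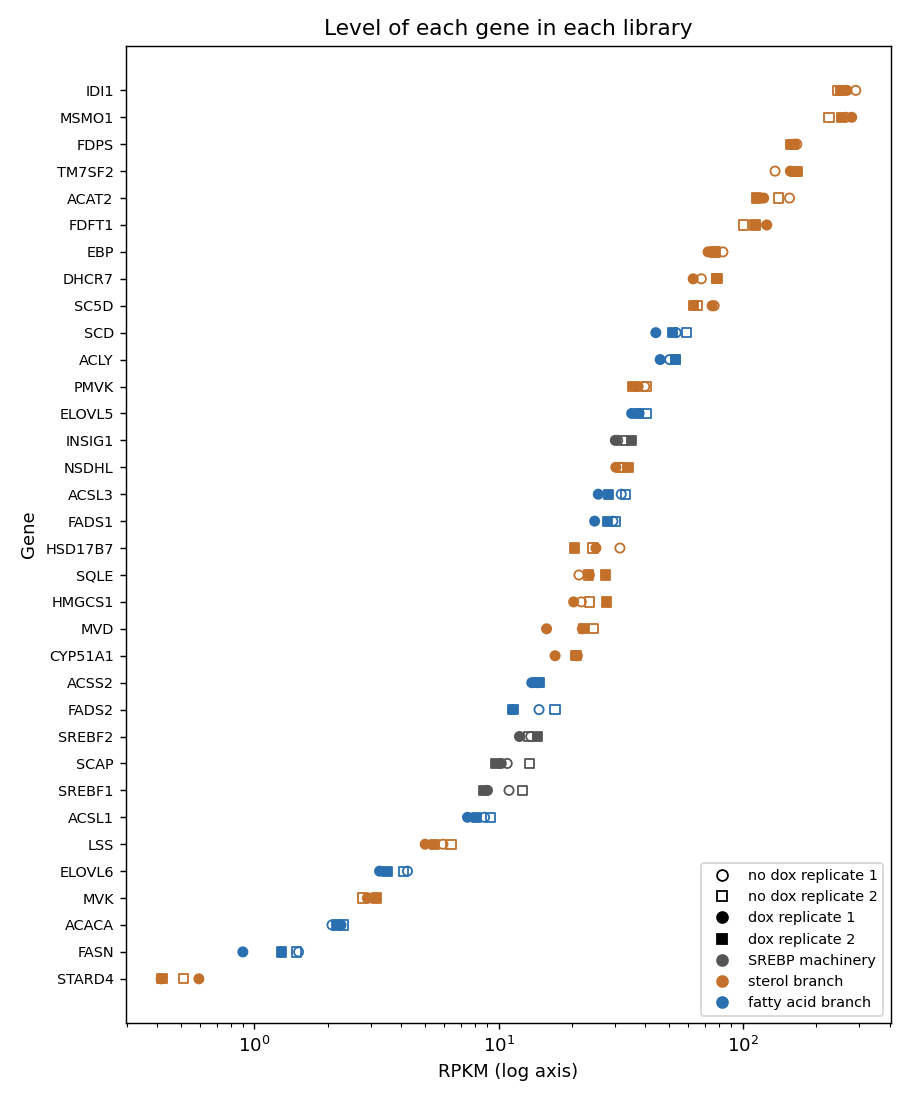
The level of each of the 34 genes (y axis, ordered by mean) is plotted in RPKM on a log axis, with open symbols without dox, filled symbols with dox, circles for replicate 1 and squares for replicate 2. The 6 genes with a mean of 100 RPKM or more all belong to the sterol branch, and the spread of the 4 libraries of a gene is small beside the range between genes.

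Levels between genes spanned 545-fold per length of gene model. The highest mean over the 4 libraries was 264 RPKM for IDI1, followed by MSMO1 at 256.3, FDPS at 162.2, TM7SF2 at 155.9, ACAT2 at 133 and FDFT1 at 113.2. IDI1, with libraries between 245.9 and 290.8 RPKM, overlapped MSMO1, with libraries between 226.1 and 279.9, and FDPS overlapped TM7SF2 and ACAT2 overlapped FDFT1 in the same way. The fatty acid genes began at rank 10 with SCD at 51.95 RPKM, followed by ACLY at 50.5, whose libraries overlapped those of SCD. FASN ranked 33, at 1.30 RPKM, and only STARD4 was lower, at 0.484. SREBF2 at 13.4, SCAP at 11.1 and SREBF1 at 10.3 RPKM were neighbours in the order, while INSIG1 was higher at 32.2 RPKM.

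**Figure D4:**
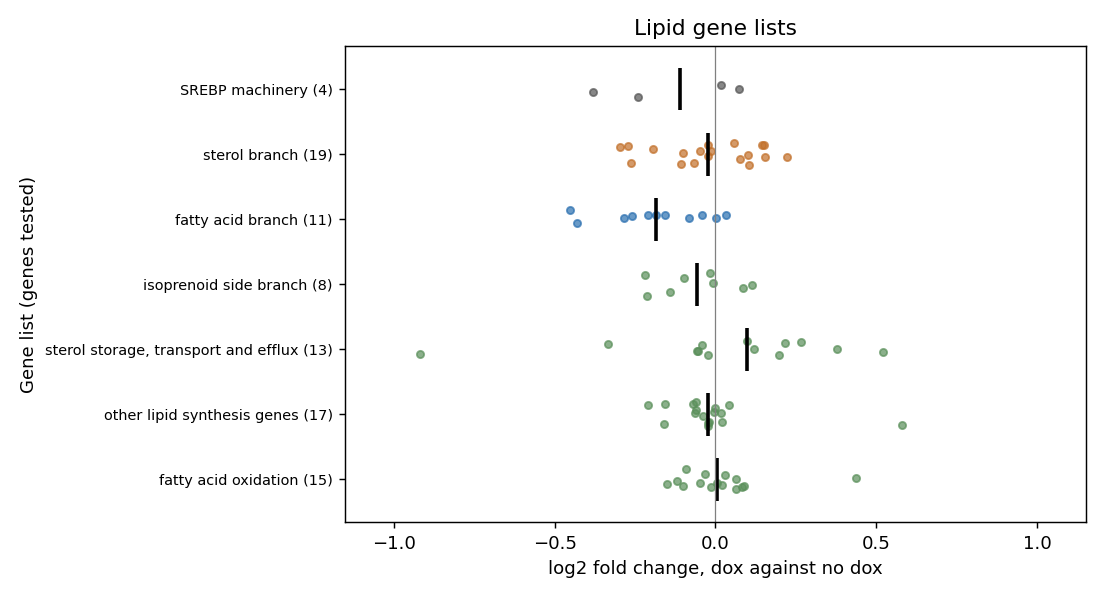
The log2 fold change of dox against no dox (x axis) is plotted for each gene tested of 7 lipid gene lists (y axis), 1 point a gene, with bars at the medians. The list medians lie between -0.18 for the fatty acid branch and 0.10 for sterol storage, transport and efflux, and the lowest point is ABCA1 at -0.92.

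Around the synthesis genes, none of the genes of 4 further lipid lists passed the test. In sterol storage, transport and efflux, 7 of 13 genes were above 0 and 6 below it, with a median log2 fold change of 0.10. At an unadjusted p under 0.05 (limma) there were 2 on each side, where 4.68% of all genes tested were higher and 4.59% lower. ABCA1, which exports cholesterol to apolipoproteins, had 0.662 and 0.800 RPKM without dox and 0.449 and 0.323 RPKM with dox, or 175, 197, 77 and 66 reads. Its log2 fold change was -0.92 ± 0.24 (adjusted p = 0.228, limma), the lowest of all these lists.

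ABCG1, also an exporter of cholesterol and, like ABCA1, a known target of the sterol-sensing liver X receptors, had 3.49 and 3.78 RPKM without dox and 5.00 and 5.27 RPKM with dox. ABCG1 had a log2 fold change of 0.52 ± 0.15 (adjusted p = 0.302, limma). The exporters thus lay on opposite sides of 0, each with groups that did not overlap. CYP27A1, a mitochondrial sterol hydroxylase, was at 0.38 ± 0.15 (adjusted p = 0.447, limma) and TMEM97, a sterol-regulated membrane protein that binds NPC1, at -0.33 ± 0.13 (adjusted p = 0.459, limma).

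Of the 20 other genes of lipid synthesis, 17 were tested (ELOVL7, ACSL5 and MLXIPL did not pass the filter on low counts), with 4 above 0, 13 below it and a median of -0.02. Only DGAT2, which makes triglycerides from diacylglycerol, was under an unadjusted p of 0.05 (limma). That is 1 of 17 higher, where 4.68% of all genes tested were higher at that threshold. It had 5.76 and 7.07 RPKM without dox and 7.97 and 10.97 RPKM with dox, at a log2 fold change of 0.58 ± 0.18 (adjusted p = 0.321, limma). The 8 genes of the isoprenoid side branch, which leads to protein prenylation, dolichol and ubiquinone, had a median of -0.06 with 6 below 0. The 15 genes of fatty acid oxidation had a median of 0.00, with 8 above 0 and 7 below it. The median of the fatty acid branch, at -0.18, was below those of the other lipid synthesis genes and of fatty acid oxidation. By sign, 76.5% of the other lipid synthesis genes were below 0, against 81.8% of the fatty acid branch and 50.1% of all genes tested. The isoprenoid side branch had 75% below 0 and fatty acid oxidation 46.7%. These differences between lists were not tested.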

How the data were processed

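RNA-seq was analysed from 2 samples without dox and 2 with dox, grouped by the labels. Per the study's methods, the authors discarded ribosomal reads, used GSNAP for alignment against GRCh38 and counted exonic reads of each gene. The deposited counts are raw, and the RPKM deposited by the authors carry a further scaling per sample, so RPKM served for levels, their sums and alternative tests, not for the main test. Of the library kits in the labels (stranded, or for low input), which served here is not given.

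Symbols and positions are from GENCODE 44, in which 57532 of 58302 identifiers had a symbol. After filterByExpr, counts were divided by library totals, brought to common quantiles, weighted with voom and tested in limma 3.58.1 (R 4.3.3), with Benjamini-Hochberg adjustment over all 16181 genes. Alternatives used edgeR 4.0.16, DESeq2 1.42.0, other scalings, filters and RPKM pseudocounts, a replicate block and each library left out. The log2 CPM used 0.5 prior reads. The fit was tested on simulated data.

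The members, lists and tests were chosen with earlier results of these data known. Named in full were the machinery genes and, in each branch, genes with an unadjusted p under 0.05 and the 2 highest and 2 lowest; outside them, up to 4 genes a list with an unadjusted p under 0.05. MIB1 was the check of the labels. A further list, of SREBP processing genes, is not reported here. Further values of members named beyond that rule were chosen after they were seen.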

Additional observations from a re-analysis of the deposited data

How the results depend on the processing

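No member was called under any of the alternatives run; the lowest adjusted p of a member lay between 0.166 and 0.896 except under the replicate block. Over all genes, the 6 calls became 2 in DESeq2, 0 with no filter beyond 1 read (2092 genes with an unadjusted p under 0.05), 0 on log2(RPKM + 0.1) (1442), 0 on log2(RPKM + 1) (1438) and 0 to 0 with each library left out, where the lone sample was assumed to vary like the other group. With the replicate number as a block there were 78 calls, and 1154 of 16181 genes had an adjusted p of 0.05 or less and 3276 an unadjusted p under 0.05; 5 members (SREBF1, ACAT2, SCD, FADS2 and ACSL3) reached an adjusted p of 0.05 or less, none at 2-fold, with 9.09e-05 the lowest, and 16 members were under 0.05 unadjusted, 12 lower and 4 higher. The main fit was set without a block, because the labels do not say that the numbers pair the samples. There are only 2 pairs. Same-numbered deviations correlated at r = 0.144 across all genes tested. Each deviation rests on single libraries, so this value cannot decide whether the samples are paired. The 5 members with an unadjusted p under 0.05 became 3 with library size only, 3 in DESeq2 and 1 to 7 with a library left out; the 3 without dox replicate 1 were 1 lower and 2 higher, where all others apart from the block were lower. The sterol median minus the fatty acid median was 0.0459 to 0.2625 with a library left out and 0.0608 over members without exon overlap (this alternative, the removal of a GC and length trend and the thinning of reads were chosen after seeing the data). The fatty acid median stayed below 0 in all 16 alternatives, and the sterol median went above 0 (0.03) when no dox replicate 2 or dox replicate 1 was left out. The causes of these changes were not tested. Of 510 values of members over 15 alternatives, 472 kept their sign, and 17 members kept it in every alternative. ACSS2 turned to -0.0199 (TMM), -0.0079 (library size only), -0.0198 (edgeR), -0.0135 (DESeq2), -0.0275 (RPKM + 0.1), -0.0259 (RPKM + 1) and -0.0182 (thinned). SREBF2 turned to -0.0117 (TMM), -0.0062 (edgeR), -0.0001 (DESeq2), -0.0191 (RPKM + 0.1) and -0.0176 (RPKM + 1), and SC5D to 0.007 without the GC and length trend. With a library left out, the values crossed 0 for ACACA (-0.0361 to 0.0928), ACLY (-0.218 to 0.1286), ACSS2 (-0.0558 to 0.0613), CYP51A1 (-0.2719 to 0.0519), DHCR7 (-0.2553 to 0.1961), EBP (-0.1702 to 0.0323), ELOVL5 (-0.1715 to 0.0034), FADS1 (-0.3289 to 0.0031), FDPS (-0.0587 to 0.0313), HMGCS1 (-0.1489 to 0.3468), IDI1 (-0.1141 to 0.0165), INSIG1 (-0.0668 to 0.204), NSDHL (-0.0449 to 0.1577), SC5D (-0.0923 to 0.0464), SREBF2 (-0.1146 to 0.1473), STARD4 (-0.1488 to 0.3157) and TM7SF2 (-0.0496 to 0.3348). Depth limits STARD4 most, with 42 to 62 reads a library.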
